A study of Mus musculus with 2 samples.

Results

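Chemokines are small secreted proteins that draw leukocytes and other cells along a concentration gradient, and they act through receptors coupled to G proteins. Members were taken by gene symbol: every Ccl, Cxcl, Ccr or Cxcr gene with a number in its symbol, and Cx3cl1, Cx3cr1, Xcl1, Xcr1 and Ackr1 to Ackr4. The rule found 67 features with 61 symbols among all features of the count table, 27998 in number. Of these, 35 had at least 20 unique molecular identifiers (UMIs, each standing for 1 captured RNA molecule) over both libraries, 20 had fewer, and 12 had none.

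The study profiled nuclear RNA of mouse liver by droplet-based 3' sequencing to compare Sox9f/f mice with Sox9HKO mice. Both groups were C57BL/6 mice aged 12 weeks, and both libraries were taken 48 h after partial hepatectomy (PHx). The HKO group stands for Sox9HKO and the WT group for Sox9f/f, and each had 1 library. The sources used here do not give what HKO stands for, the promoter that drives the deletion or the number of animals behind a library. With 1 library per group no difference between the groups could be tested, and every interval below covers counting error only.

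Chemokines are sorted by the spacing of their first cysteines into CXC, CC, XC and CX3C families. CXC ligands that carry the ELR motif, such as CXCL1 and CXCL2, attract neutrophils through CXCR2, while CXCL9 and CXCL10 are induced by interferon and attract activated T and NK cells through CXCR3. Atypical receptors bind chemokines without the usual signalling and remove or transport them. In liver, hepatocytes, sinusoidal endothelial cells, Kupffer cells and stellate cells can each release chemokines after injury.

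Sequence next to the start site is shown for 4 CXC ligands of chromosome 5 that form neighbouring pairs, since 3 of them (Cxcl1, Cxcl9 and Cxcl10) were at least 2-fold lower in HKO and Cxcl2 was not. Cxcl1 and Cxcl2 are neighbours on the plus strand, and Cxcl9 and Cxcl10 are neighbours on the minus strand. The sequences are RefSeq, build GRCm38.p6, read 5′ to 3′ on the strand of the gene, each 220 bases long and ending 31 bases before the RefSeq start site. Capitals mark matches to an NF-kB motif (GGGANNTTCC) or to an interferon response motif (ISRE, GAAANNGAAA), searched on both strands, with overlapping matches run together. The intervals are chr5:90890995-90891214 for Cxcl1, chr5:90903649-90903868 for Cxcl2, chr5:92328110-92328329 for Cxcl9 and chr5:92348920-92349139 for Cxcl10.
Cxcl1: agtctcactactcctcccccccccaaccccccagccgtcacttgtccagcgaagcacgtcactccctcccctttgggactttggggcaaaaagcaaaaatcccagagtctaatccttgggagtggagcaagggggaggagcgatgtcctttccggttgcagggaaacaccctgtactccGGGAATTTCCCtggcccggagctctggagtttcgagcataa
Cxcl2: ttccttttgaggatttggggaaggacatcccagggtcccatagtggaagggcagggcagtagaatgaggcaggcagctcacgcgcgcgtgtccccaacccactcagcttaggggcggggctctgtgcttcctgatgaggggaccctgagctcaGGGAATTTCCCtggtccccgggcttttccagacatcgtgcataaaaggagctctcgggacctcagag
Cxcl9: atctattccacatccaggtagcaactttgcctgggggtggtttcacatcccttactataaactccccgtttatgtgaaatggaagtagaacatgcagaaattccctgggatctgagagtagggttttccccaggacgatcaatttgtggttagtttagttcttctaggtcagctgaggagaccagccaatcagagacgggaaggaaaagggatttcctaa
Cxcl10: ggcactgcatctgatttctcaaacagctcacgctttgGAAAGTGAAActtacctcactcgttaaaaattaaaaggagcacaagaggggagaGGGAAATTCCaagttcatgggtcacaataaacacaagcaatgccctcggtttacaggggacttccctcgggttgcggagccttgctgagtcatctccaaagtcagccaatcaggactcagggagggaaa

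Cxcl1 and Cxcl2 held the same run, GGGAATTTCCC, which matches the NF-kB motif on both strands. It began 71 bases before the start site in Cxcl1 and 97 bases before it in Cxcl2. Cxcl10 held GAAAGTGAAA, an ISRE match that began 213 bases before the start site, and GGGAAATTCC, an NF-kB match that began 159 bases before it. Cxcl9 had neither motif in its window. Start-site sequence was found for 26 of the 35 members with at least 20 UMIs. Within 250 bases before the start, an NF-kB match lay in 3 of these members (Cxcl1, Cxcl2 and Cxcl10) and an ISRE match in 2 (Cxcl10 and Cxcl14). A gamma-activated site motif (GAS, TTCNNNGAA) lay in 1, Cxcl14. The window of Cxcl13 held none of the motifs. Of all 32851 windows of the same length, 1.21% held the NF-kB motif, 2.98% the ISRE motif and 7.02% the GAS motif. These shares are per window, over 27025 genes, while the member counts are per gene, over 29 windows of 26 members. A match describes the letters and not a bound factor.

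The HKO library had 61123904 UMIs over 14912 barcodes and the WT library 64609301 UMIs over 14701 barcodes, and 14902 and 14515 nuclei were kept. The median depth was 3285 UMIs in HKO against 3423 in WT. Of the HKO nuclei 3855 had under 2000 UMIs, against 286 in WT. The 2 libraries shared 70 barcodes. Sox9 was at 5.76 CPM (UMIs of a gene scaled to a total of 1000000, 95% Poisson interval 5.18 to 6.398) over all HKO nuclei and at 10.6 CPM (9.82 to 11.4) in WT. A 3' tag may lie outside the deleted part, so these counts check the labels only in part. All 15 hepatocyte markers reached 20 CPM or more in the hepatocyte-like nuclei of both libraries.

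Nuclei were clustered without the chemokine genes, and clusters were named from marker genes. The hepatocyte-like name asked for at least 3 of the 15 markers at or above their level in the other named classes. The WT clusters led by Meg3 and by Top2a had 4 each, and the HKO cluster led by Cenpp had 5. Hepatocyte-like nuclei made up 57.9% of HKO and 65.5% of WT nuclei, endothelial-like 15.8% and 7.76%, macrophage-like 12.1% and 7.26%, and stellate-like 7.71% and 4.40%. T/NK-like, B-like, dendritic-like and cholangiocyte-like nuclei numbered 291, 162, 108 and 123 in HKO against 108, 41, 14 and 33 in WT. A myeloid cluster with dendritic and neutrophil markers (246 and 50 nuclei) and a cluster led by mitochondrial genes (36 and 1946 nuclei) were left unnamed. Except for the stellate-like class, the large classes lay in separate clusters in HKO and WT, so a class is not the same cluster in both libraries. Hepatocyte markers were found in every class: their median level in endothelial-like, macrophage-like and stellate-like nuclei was 77.5% to 95.3% of that in hepatocyte-like nuclei. A member at a like level in all classes therefore cannot be told apart from free RNA or RNA of attached hepatocytes. Of the UMIs of all genes, hepatocyte-like nuclei held 37995016 of 61073152 in HKO and 43030555 of 63551374 in WT. A like share of a member's UMIs in these nuclei shows no class of expression. In a sum over all nuclei, fewer cells of a type and less RNA per cell cannot be told apart.

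Over all nuclei, 5 of the 35 members were at least 2-fold lower in HKO than in WT on the log2(CPM + 0.5) scale: Cxcl1, Cxcl10, Ccl9, Cxcl9 and Cxcl14. One member, Cxcl13, was at least 2-fold higher. Of the 16519 genes with at least 20 UMIs, 3.32% were lower and 3.43% higher by the same rule. The median log2 ratio of HKO over WT was -0.04 over the members and 0.16 over all genes. Scaling by TMM factors moved the median of all genes by -0.17 and gave 784 lower and 352 higher genes, against 549 and 566 with total counts, and median ratio scaling gave 742 and 371. Weighting each nucleus equally gave 504 lower and 887 higher genes. The 6 members named here kept their direction under all 3.

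**Figure D1:**
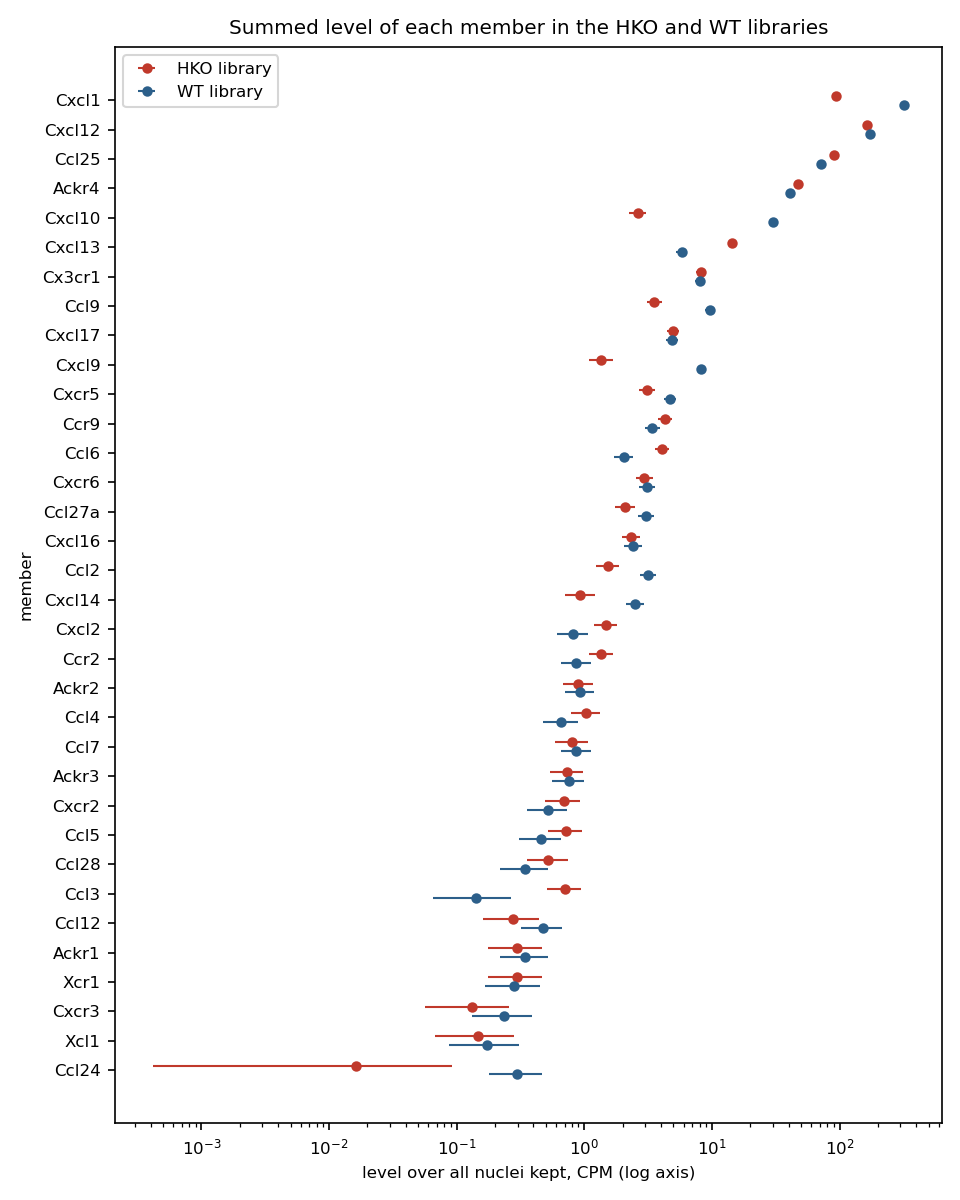
Level of 34 of the 35 members in CPM (log axis) over all nuclei kept, with points for the HKO and WT libraries and bars for the 95% Poisson interval. Cxcl1, Cxcl12, Ccl25 and Ackr4 lie above 40 CPM in both libraries, and Cxcl10 stands 2.62 against 30.3 CPM.

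CXCR3 ligands showed the lowest library ratio among the roles, a median log2 ratio of -2.77 over both genes. Cxcl10 (chr5:92346638-92348889, minus strand) had 160 UMIs in HKO against 1926 in WT, a level of 2.62 CPM (2.23 to 3.06) against 30.3 CPM (29.0 to 31.7). The WT level was 11.6 times the HKO level (9.84 to 13.7). Cxcl9 (chr5:92321347-92328079, minus strand) had 83 and 526 UMIs, or 1.36 CPM (1.08 to 1.68) against 8.28 CPM (7.58 to 9.02), and WT was 6.09-fold higher (4.82 to 7.77). Both ligands were thus low in the HKO library and high in the WT library, with intervals that do not overlap. Cxcr3, their receptor, had 8 UMIs in HKO against 15 in WT, too few to order (fold 0.555, 0.204 to 1.39).

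Among the 4 largest named classes, Cxcl10 was lowest in hepatocyte-like nuclei in both libraries. There it was at 1.05 CPM (0.752 to 1.43) in HKO against 25.4 CPM (24.0 to 27.0) in WT, a 24.2-fold higher WT level (17.6 to 34.0). Stellate-like nuclei had 4.66 CPM in HKO against 54.8 CPM in WT, 11.8-fold higher in WT (7.28 to 20.1). Macrophage-like nuclei had 5.08 and 49.1 CPM, 9.66-fold higher (6.85 to 14.0), and endothelial-like nuclei 5.93 and 42.8 CPM, 7.21-fold higher (5.31 to 9.95). The WT level was thus above the HKO level in each of the 4 largest named classes. Relative to hepatocyte-like nuclei of the same library, endothelial-like nuclei had 5.63 times the Cxcl10 level in HKO (3.66 to 8.73) and 1.68 times in WT (1.45 to 1.94).

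The number of nuclei with Cxcl10 gave the same order. In hepatocyte-like nuclei 37 of 8629 HKO nuclei (0.429%, exact binomial interval 0.302 to 0.591) and 749 of 9505 WT nuclei (7.88%, 7.35 to 8.44) had a Cxcl10 UMI, at median depths of 3922 and 3798 UMIs. After thinning to 1200 UMIs per nucleus, which left out 24 HKO nuclei, the shares were 0.128% and 2.72%. In macrophage-like nuclei the shares were 1.55% in HKO against 17.3% in WT, and 0.669% and 5.88% when thinned. In the WT library the 1% of nuclei with most Cxcl10 held 31.3% of its UMIs, and 1 nucleus held 19. Among WT hepatocyte-like nuclei the cycling cluster led by Top2a had 44.9 CPM of Cxcl10 against 23.6 CPM in the largest cluster, 1.90-fold higher (1.64 to 2.21).

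Cxcl9 was also higher in WT in each of the 4 largest named classes. Hepatocyte-like nuclei had 0.947 CPM in HKO against 8.16 CPM in WT, 8.61-fold higher in WT (6.10 to 12.5). Endothelial-like nuclei had 3.42 CPM (2.31 to 4.89) in HKO against 11.5 CPM (8.78 to 14.8) in WT, and held the highest Cxcl9 level among the classes with at least 20 UMIs of it. Macrophage-like nuclei had 9 UMIs in HKO against 42 in WT, and stellate-like nuclei 6 and 29. In WT, 91 of the 407 nuclei with a Cxcl9 UMI also had Cxcl10 (22.4%, 18.4 to 26.7), against 1233 of the 14108 other nuclei (8.74%, 8.28 to 9.22). The Cxcl9 nuclei were deeper, with a median of 4368 UMIs against 3400, and the part of depth in the overlap was not tested. In HKO, 6 of 72 Cxcl9 nuclei had Cxcl10.

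**Figure D2:**
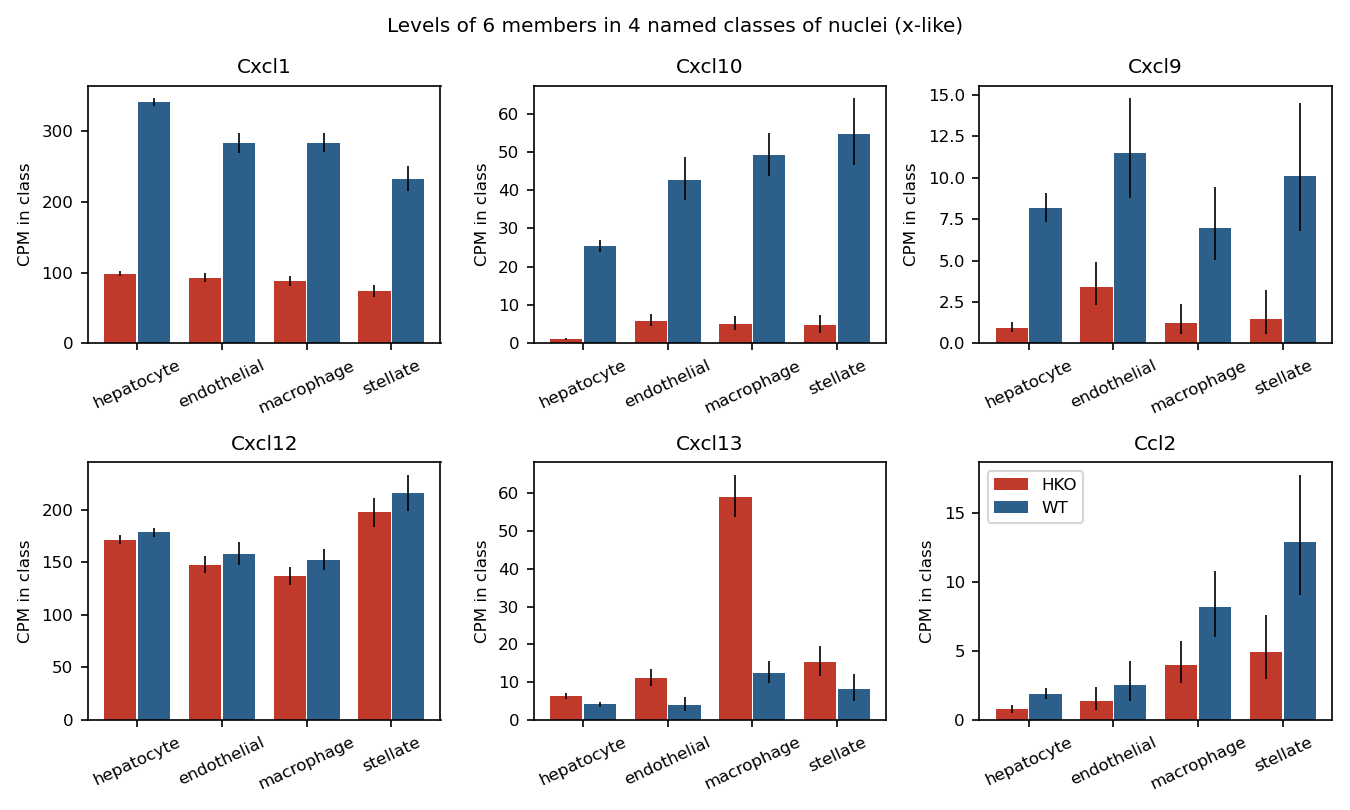
Level in CPM of the class (linear axes from 0) of Cxcl1, Cxcl10, Cxcl9, Cxcl12, Cxcl13 and Ccl2 in hepatocyte-like, endothelial-like, macrophage-like and stellate-like nuclei, with bars for the HKO and WT libraries and lines for the 95% Poisson interval. Cxcl1, Cxcl10 and Cxcl9 are lower in HKO in all 4 classes, and the Cxcl13 bar of HKO macrophage-like nuclei reaches 59.1 CPM.

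The ELR+ ligand Cxcl1 was the most abundant member in WT and went the other way from its neighbour Cxcl2. Cxcl1 (chr5:90891241-90893115, plus strand), which attracts neutrophils, had 5748 UMIs in HKO against 20202 in WT, or 94.1 CPM (91.7 to 96.6) against 318 CPM (314 to 322). The WT level was 3.38-fold higher (3.28 to 3.48). A Cxcl1 UMI was found in 3955 HKO and 9246 WT nuclei. Hepatocyte-like nuclei were at 98.6 CPM in HKO against 341 CPM in WT and held 65.2% and 72.6% of the Cxcl1 UMIs. The other nuclei together stood at 0.879 of the hepatocyte-like level in HKO against 0.791 in WT, within the range of the hepatocyte markers in the other classes, so a source outside hepatocytes was not separable. The WT level was 3.06-fold higher in endothelial-like, 3.21-fold in macrophage-like, 3.14-fold in stellate-like and 3.46-fold in hepatocyte-like nuclei.

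Within hepatocyte-like nuclei, the cluster with the highest level of Glul, the glutamine synthetase gene of hepatocytes around the central vein, had less Cxcl1 than the largest cluster in both libraries. It was at 65.2 CPM against 101 CPM in HKO (ratio 0.642, 0.553 to 0.742) and at 238 CPM against 366 CPM in WT (ratio 0.650, 0.616 to 0.686). The share of hepatocyte-like nuclei with a Cxcl1 UMI was 30.4% (29.5 to 31.4) in HKO against 69.2% (68.3 to 70.1) in WT, and 11.1% and 32.9% when thinned. Cxcl2 (chr5:90903871-90905938, plus strand), another neutrophil attractant, had 90 UMIs in HKO against 52 in WT, or 1.47 CPM (1.18 to 1.81) against 0.818 CPM (0.611 to 1.07), and HKO was 1.80-fold higher (1.27 to 2.59). Of its UMIs, 55 in HKO against 36 in WT lay in hepatocyte-like nuclei, near that class's share of all UMIs. Its log2 ratio was 0.58, which did not pass the 2-fold size. Cxcl5 had 5 UMIs, and Cxcl3 and Cxcl15 had none.

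Among the other CXC ligands, Cxcl13 was higher in HKO, Cxcl14 lower, and Cxcl12, Cxcl16 and Cxcl17 within 10% of equal. Cxcl13 (chr5:95956951-95961068, plus strand), a B-cell attractant that acts through CXCR5, had 874 UMIs in HKO against 368 in WT, or 14.3 CPM (13.4 to 15.3) against 5.79 CPM (5.21 to 6.41), and HKO was 2.47-fold higher (2.19 to 2.80). Macrophage-like nuclei had 59.1 CPM (53.6 to 64.9) in HKO against 12.5 CPM (9.82 to 15.7) in WT, 4.73-fold higher in HKO (3.70 to 6.13). These nuclei lay in different clusters in the 2 libraries. In HKO they held 49.2% of the Cxcl13 UMIs, and in WT 20.4%.

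A Cxcl13 UMI was found in 322 of 1808 HKO macrophage-like nuclei (17.8%, 16.1 to 19.6) and 64 of 1054 in WT (6.07%, 4.71 to 7.69), at median depths of 2241 and 3422 UMIs. Thinned to 1200 UMIs the shares were 10.0% and 2.09%. As a background, the share in hepatocyte-like nuclei was 2.67% in HKO against 1.78% in WT. With nuclei of at least 2000 UMIs only, the log2 ratio of Cxcl13 over all nuclei was 0.96, under the 2-fold size, against 1.24 with all nuclei.

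Cxcl12 (chr6:117168535-117181367, plus strand), the ligand of CXCR4 that holds leukocytes and progenitors in tissues, was at 164 CPM (161 to 168) in HKO against 173 CPM (170 to 177) in WT, a fold of 0.947 (0.922 to 0.973). Stellate-like nuclei had the highest level, 197 CPM (184 to 212) in HKO against 216 CPM (199 to 233) in WT, which was 1.15 and 1.21 times the hepatocyte-like level. Cxcl12 was thus spread over the classes, with hepatocyte-like nuclei at 171 and 178 CPM. Cxcl16, a membrane-bound ligand of CXCR6, was at 2.33 CPM in HKO against 2.41 CPM in WT. Its macrophage-like level was 6.87 and 6.49 CPM, or 7.68 and 4.73 times the hepatocyte-like level, and its endothelial-like level 4.68 and 5.75 CPM. Cxcl17, a mucosal chemokine, was at 4.96 and 4.86 CPM with hepatocyte-like nuclei at 5.19 and 5.39 CPM. It overlaps 12834 bases of 4732471J01Rik on the opposite strand, which was at 109 and 93.8 CPM. Cxcl14, a ligand made by many epithelia, had 57 UMIs in HKO against 159 in WT (0.933 and 2.50 CPM), and WT was 2.68-fold higher (1.97 to 3.69). Hepatocyte-like nuclei held 61.4% and 62.9% of its UMIs, near their share of all UMIs, at 0.921 and 2.32 CPM. Without the cluster led by mitochondrial genes its log2 ratio was -0.97, against -1.07 with it.

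Among CC ligands, 12 of 30 features had at least 20 UMIs, and 1 of the 12, Ccl9, passed the 2-fold size. By this size 3.32% of all genes were lower and 3.43% higher, so 1 of 12 does not set CC ligands apart. Ccl25 (chr8:4325210-4360020, plus strand), which attracts thymocytes and gut-homing T cells through CCR9, had 5525 UMIs in HKO against 4551 in WT, or 90.5 CPM (88.1 to 92.9) against 71.6 CPM (69.5 to 73.7), and HKO was 1.26-fold higher (1.21 to 1.31). Its level was 93.6 and 76.1 CPM in hepatocyte-like nuclei, 87.4 and 67.1 CPM in endothelial-like, and 88.2 and 71.2 CPM in macrophage-like nuclei. The 4 largest named classes thus spanned 83.6 to 93.6 CPM in HKO against 59.7 to 76.1 CPM in WT. In cholangiocyte-like nuclei it had 21 UMIs in HKO against 15 in WT, a fold of 0.496 (0.243 to 1.03).

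Ccl9 (chr11:83572919-83578636, minus strand), a ligand of CCR1, had 216 UMIs in HKO against 611 in WT, or 3.54 CPM (3.08 to 4.04) against 9.61 CPM (8.87 to 10.4), and WT was 2.72-fold higher (2.32 to 3.19). The WT level was 2.80-fold higher in hepatocyte-like, 2.24-fold in endothelial-like, 2.03-fold in macrophage-like and 3.05-fold in stellate-like nuclei, so all 4 classes had the same order. Its neighbour Ccl6 (chr11:83587882-83593087, minus strand), also a CCR1 ligand made by myeloid cells, had the opposite order. Ccl6 was at 4.06 CPM (3.57 to 4.60) in HKO against 2.05 CPM (1.71 to 2.43) in WT, 1.99-fold higher in HKO (1.60 to 2.47). In macrophage-like nuclei it was at 16.8 CPM (13.9 to 20.02) and 6.66 CPM (4.76 to 9.07), 2.52-fold higher in HKO (1.75 to 3.70), which was 8.38 and 5.31 times the hepatocyte-like level.

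Ccl2, which recruits monocytes through CCR2, had 94 UMIs in HKO against 202 in WT, or 1.54 and 3.18 CPM, and WT was 2.07-fold higher (1.61 to 2.67). On the log2(CPM + 0.5) scale its ratio was -0.85, so it did not pass the 2-fold size. It was highest in stellate-like nuclei, at 4.90 CPM (2.996 to 7.57) in HKO against 12.9 CPM (9.09 to 17.8) in WT, 2.63-fold higher in WT (1.49 to 4.79), and next in macrophage-like nuclei at 3.98 and 8.16 CPM. The monocyte attractant Ccl7, whose gene lies near Ccl2, was at 0.802 and 0.865 CPM and, among the named classes, highest in macrophage-like nuclei at 3.57 and 2.33 CPM. Ccl4, an attractant of monocytes and T cells, was at 1.03 and 0.661 CPM with macrophage-like nuclei at 3.71 and 2.996 CPM. Ccl27a was at 2.10 and 3.05 CPM (fold 0.687, 0.545 to 0.863), and among the 4 largest named classes it was highest in hepatocyte-like nuclei. Reads of Ccl27a were counted in 1 of its 3 features, and the near-identical Ccl21 and Ccl27 copies are uncertain.

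The remaining CC ligands were counted in few molecules. Ccl3, a ligand of CCR1, had 43 UMIs in HKO against 9 in WT, a fold of 4.97 (2.39 to 11.6), which the 0.5 CPM added before the logarithm left at a log2 ratio of 0.91. In hepatocyte-like nuclei it had 18 UMIs in HKO against 0 in WT. The HKO level there was 6.795 times that of 3 counts in WT, taken as the limit of a count of 0. This ratio leaves out the counting error of the 18 UMIs. Ccl24, an eosinophil attractant, had 1 UMI in HKO against 19 in WT, a fold of 0.0548 (0.00132 to 0.345), and 7 of the WT UMIs lay in macrophage-like nuclei. Ccl5, a T-cell product, had 44 and 29 UMIs and was highest among the named classes in T/NK-like nuclei, on 11 and 2 UMIs. Ccl12 had 17 and 30 UMIs and was highest in macrophage-like nuclei. Ccl28 had 32 and 22 UMIs, of which 20 and 17 lay in hepatocyte-like nuclei, the class with most UMIs of all genes.

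**Figure D3:**
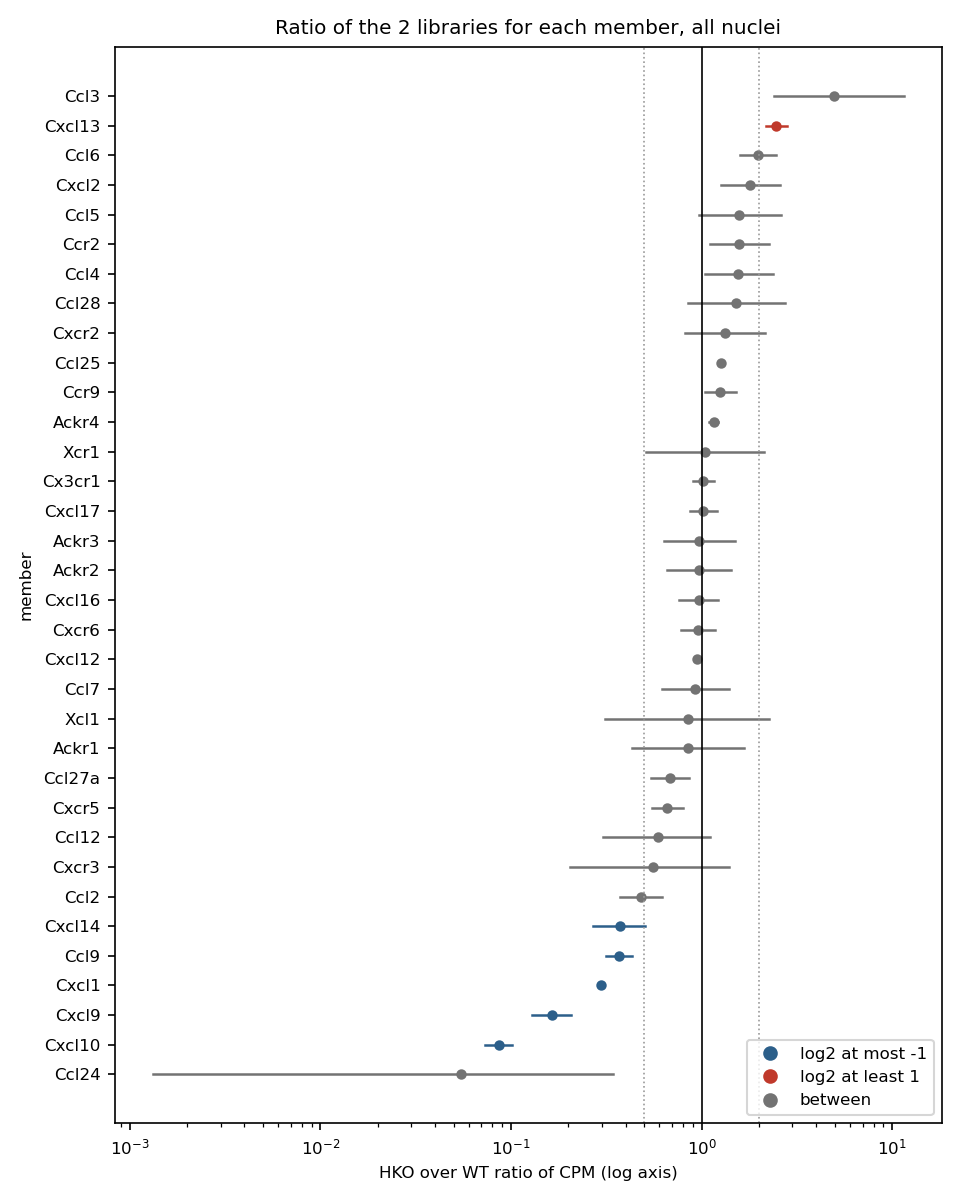
HKO over WT ratio of the level of 34 of the 35 members over all nuclei (log axis), with the exact 95% conditional interval as a line. Dotted lines mark 0.5 and 2, and colour marks the 2-fold size on the log2(CPM + 0.5) scale. Ccl24, Ccl3 and Ccl2 lie past the dotted lines but stay between on that scale, which draws low levels together.

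Of the 9 signalling receptors with at least 20 UMIs, none passed the 2-fold size over all nuclei, and their median log2 ratio was 0.02. Of all genes, 3.32% were lower and 3.43% higher by this size, so none of 9 is near the background.

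Cx3cr1, the fractalkine receptor of monocytes and some tissue macrophages, was at 8.27 CPM (7.56 to 9.02) in HKO against 8.09 CPM (7.40 to 8.82) in WT. It was at 8.24 and 7.44 CPM in hepatocyte-like and at 7.15 and 11.5 CPM in macrophage-like nuclei, so it did not mark the macrophage-like class. Among named classes with at least 20 of its UMIs, endothelial-like nuclei had the highest level, a mean of 12.0 CPM over the libraries. The annotated gene overlaps Csrnp1 over 13496 bases and Gorasp1 over 12309 bases on the same strand, so reads of these genes cannot be told apart from its own. Xcr1, the receptor of cross-presenting dendritic cells, had 18 UMIs in each library, of which 5 in HKO against 3 in WT lay in the unnamed myeloid cluster. Xcl1, its ligand, was at 0.147 CPM (0.0674 to 0.280) on 9 UMIs of the HKO library and 0.173 CPM (0.0864 to 0.310) on 11 of the WT library, of which 1 and 6 lay in stellate-like nuclei, and the CX3CR1 ligand Cx3cl1 had 4 and 5.

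Ccr9 was highest in dendritic-like nuclei and Cxcr5 in B-like nuclei in both libraries. Ccr9 (chr9:123678439-123784330, plus strand), the receptor for CCL25, was at 90.7 CPM (60.3 to 131) in HKO against 138 CPM (55.4 to 284) in WT in dendritic-like nuclei, a class led by Siglech, a gene of plasmacytoid dendritic cells. This was 22.4 times the hepatocyte-like level in HKO (14.4 to 33.6) and 38.5 times in WT (15.2 to 81.2). Over all nuclei Ccr9 was at 4.29 and 3.41 CPM, and the gene overlaps Lztfl1 on the opposite strand over 23282 bases. Cxcr5 (chr9:44511787-44561877, minus strand), the receptor for CXCL13, was at 23.0 CPM (11.9 to 40.1) in HKO against 12.6 CPM (1.52 to 45.4) in WT in B-like nuclei, on 12 and 2 UMIs, and at 3.11 and 4.70 CPM over all nuclei. Cxcr6 (chr9:123806475-123811760, plus strand), a receptor of liver-resident T and NK cells, was at 18.4 CPM (11.1 to 28.7) in HKO against 15.3 CPM (6.17 to 31.6) in WT in T/NK-like nuclei. It lies inside Fyco1 on the opposite strand, a gene at 91.4 and 95.7 CPM, and was at 3.05 and 3.21 CPM in hepatocyte-like nuclei. The sources used here do not say whether counting used strand, so reads of such antisense partners cannot be told apart. This limit also holds for other members, among them Cxcl10, Ccl2 and Ccl25. Cxcl10 overlaps Art3 over 2252 bases (3.50 CPM in HKO, 4.15 CPM in WT). Ccl2 overlaps Gm17268 over 1883 bases (1.69 and 2.86 CPM), and Ccl25 overlaps Elavl1 over 204 bases (98.2 and 79.3 CPM).

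Ccr2, the receptor for CCL2 on monocytes, had 83 UMIs in HKO against 55 in WT (1.36 and 0.865 CPM), and HKO was 1.57-fold higher (1.10 to 2.25). It was highest in the unnamed myeloid cluster, at 23.1 and 9.34 CPM on 16 and 2 UMIs, and was at 10.7 and 4.38 CPM in T/NK-like nuclei on 11 and 2 UMIs. In endothelial-like nuclei it had 19 UMIs in HKO against 2 in WT, a fold of 5.65 (1.36 to 50.03). The order was the other way in macrophage-like nuclei, its highest named class with at least 20 UMIs, with a log2 ratio of -0.70. Cxcr2, the receptor for CXCL1 and CXCL2 on neutrophils, had 42 and 33 UMIs, and 13 of the HKO UMIs and 0 of the WT UMIs lay in the unnamed myeloid cluster. Among receptors with fewer than 20 UMIs, Cxcr4, the receptor for CXCL12, had 18 UMIs in HKO against 0 in WT. The HKO level was 6.24 times the level that 3 counts, taken as the limit of a count of 0, would give in WT. This ratio leaves out the counting error of the 18 UMIs. Of these 18 UMIs, 11 lay in hepatocyte-like, 3 in B-like and 3 in unnamed myeloid nuclei. The hepatocyte-like part was near that class's share of all HKO UMIs.

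None of the 4 atypical receptors passed the 2-fold size, and their folds of HKO over WT were 0.851 for Ackr1, 0.970 for Ackr2, 0.976 for Ackr3 and 1.16 for Ackr4. With 3.32% of all genes lower and 3.43% higher by this size, none of 4 is near the background. Ackr4 (chr9:104084157-104126933, minus strand), a scavenger of CCL19, CCL21 and CCL25, was at 47.2 CPM (45.5 to 49.0) in HKO against 40.7 CPM (39.2 to 42.3) in WT, a fold of 1.16 (1.10 to 1.22), and at 54.0 and 45.5 CPM in hepatocyte-like nuclei. All 42777 bases of its annotated gene lie within Acad11, on the opposite strand, which was at 38.2 and 38.4 CPM. Ackr2, a scavenger of inflammatory CC chemokines, was at 3.08 CPM (2.03 to 4.48) in HKO against 3.07 CPM (1.75 to 4.98) in WT in endothelial-like nuclei, 6.88 and 4.13 times the hepatocyte-like level. Ackr3, the atypical receptor for CXCL12, was at 3.31 CPM (2.22 to 4.75) and 4.03 CPM (2.49 to 6.16) in endothelial-like nuclei, 12.6 and 17.3 times the hepatocyte-like level. Ackr2 and Ackr3 thus shared the endothelial-like class in both libraries. Ackr1 had 18 and 22 UMIs over all nuclei, with 9 and 4 in stellate-like nuclei.

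Counting class by class, members were compared within the class where their mean level was highest. By that rule 32 of the 35 members were highest outside hepatocyte-like nuclei, but 20 of the 35 had under 20 UMIs in the class where they were highest. Of all genes with at least 20 UMIs, 91% were highest outside hepatocyte-like nuclei by the same rule. When the class was taken among those with at least 20 UMIs of the member, 21 of 29 members were highest outside hepatocyte-like nuclei, against 72.8% of all genes. The members were thus near the background by both rules. Against the hepatocyte-like level of the same library, 20 of the 35 members had an interval above 1 in both libraries in at least 1 named class, against 30.6% of all genes. In macrophage-like nuclei these were 10, among them Cxcl10, Cxcl13, Cxcl16, Ccl2, Ccl3, Ccl4, Ccl6, Ccl7 and Ccl12. Stellate-like nuclei had 6 (among them Cxcl10, Cxcl12, Cxcl13, Ccl2 and Ackr1) and endothelial-like nuclei 5 (Cxcl9, Cxcl10, Cxcl16, Ackr2 and Ackr3). T/NK-like nuclei had 4 (Ccl5, Ccr2, Cxcr3 and Cxcr6) and dendritic-like nuclei 2 (among them Ccr9). The same rule held for 17.8% of all genes in macrophage-like, 16.6% in stellate-like, 13.6% in endothelial-like, 4.3% in T/NK-like and 2.17% in dendritic-like nuclei.

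**Figure D4:**
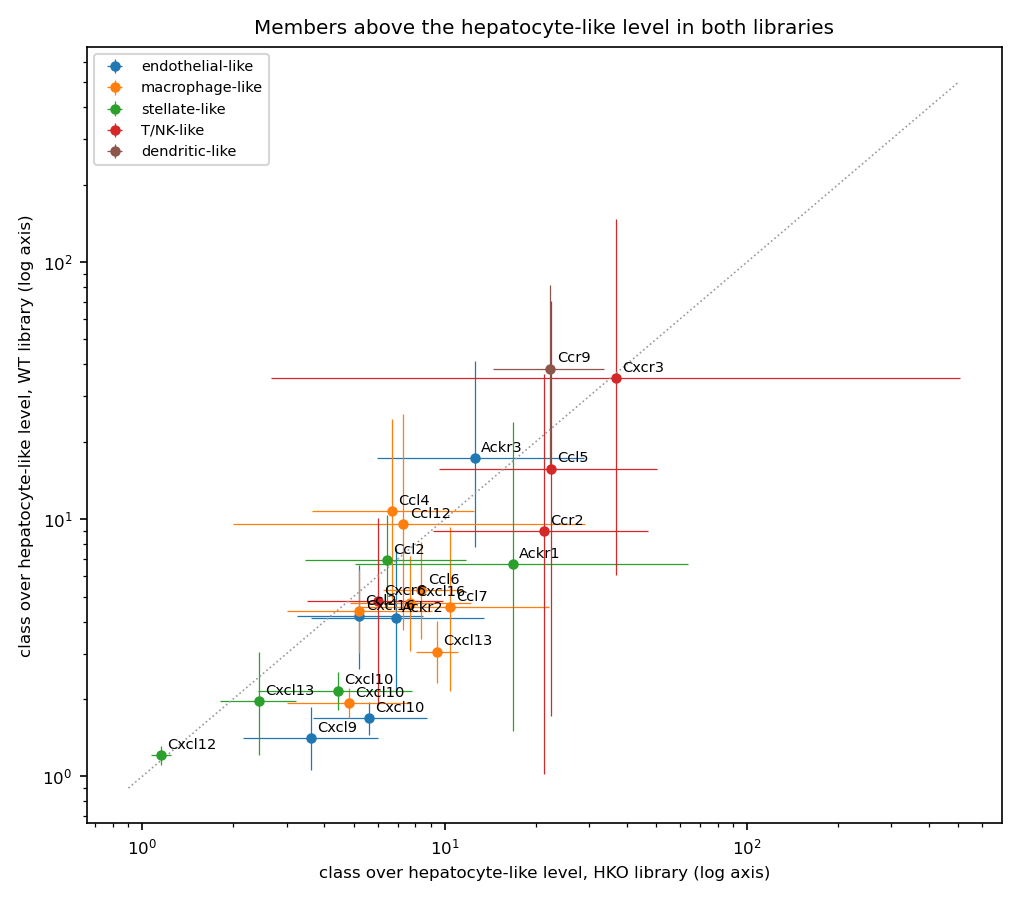
Level in a class over the hepatocyte-like level in the HKO library (x axis) and in the WT library (y axis), both log axes, for 23 of the 26 pairs of member and class with an interval above 1 in both libraries and UMIs in hepatocyte-like nuclei of both. Lines are exact 95% conditional intervals, colours are classes and the dotted line marks equal ratios. Ccr9 in dendritic-like nuclei lies at 22.4 and 38.5, and Cxcl12 in stellate-like nuclei near 1.

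Within the class of highest level, 15 members had at least 20 UMIs there. Of these, 4 were lower in HKO by the 2-fold size (Cxcl1, Cxcl10, Ccl2 and Ccl25) and 2 higher (Cxcl13 and Ccl6), and their median log2 ratio was 0.00. Among 8824 genes treated in the same way, 6.39% were lower and 4.94% higher. The Ccl25 call was that of cholangiocyte-like nuclei given above, and its interval includes 1.

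In hepatocyte-like nuclei 5 of 28 members were lower and 0 higher, against 4.09% and 3.1% of genes. In endothelial-like nuclei 5 of 22 were lower and 2 higher (background 4.82% and 4.1%), and in macrophage-like nuclei 4 of 23 were lower and 2 higher (4.27% and 3.74%). In stellate-like nuclei 6 of 14 were lower and 1, Cxcl17 on 18 and 5 UMIs, higher (5.14% and 4.03%). In T/NK-like nuclei 1 of 5, Cxcl1, was lower and 0 higher (5.51% and 7.91%). Cxcl1, Cxcl10 and Cxcl9 were among the lower members of hepatocyte-like, endothelial-like, macrophage-like and stellate-like nuclei alike.

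Genes of the pathways around the chemokines were read from 5 lists chosen with earlier results known, by the same 2-fold size. Of all genes with at least 20 UMIs, 3.32% were lower and 3.43% higher by this size. In the list of interferon signalling that induces CXCR3 ligands, 4 of 16 genes were lower in HKO, 0 higher, and the median log2 ratio was -0.02. Cd274, which encodes PD-L1, was at 12.6 CPM in HKO against 75.1 CPM in WT, 5.95-fold higher in WT, and Irf1, an interferon-induced transcription factor, was at 33.9 and 153 CPM and 4.52-fold higher in WT. Socs1, an inhibitor of cytokine signalling, was also lower, with a log2 ratio of -1.41. Ifng itself, the interferon gamma gene, had 9 UMIs over both libraries, under the minimum.

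The NF-kB list holds both activators and inhibitors of the signalling that induces inflammatory chemokines. In it 0 of 20 genes were lower and 0 higher, with a median of 0.03. With 3.32% of all genes lower and 3.43% higher, 0 of 20 is near the background. The largest log2 ratios were -0.81 for Il1rn, the interleukin 1 receptor antagonist, 0.52 for Nfkbia, the NF-kB inhibitor, and -0.51 for Tnfrsf1a, a TNF receptor. The list of chemokine receptor signalling had 0 of 23 genes lower and 2 higher, with a median of 0.39. Against the same shares of all genes, 2 of 23 does not set this list apart. Pik3r5, a regulatory subunit of the PI3 kinase of leukocytes, was at 10.2 and 2.93 CPM, 3.47-fold higher in HKO (2.94 to 4.12), and at 48.1 and 15.6 CPM in macrophage-like nuclei. Gnai1, an inhibitory G protein subunit, was at 2.91 and 1.196 CPM and at 24.8 and 6.63 CPM in stellate-like nuclei. Elmo1, which links receptors to Rac, had a log2 ratio of 0.98. The shares of macrophage-like and stellate-like nuclei were larger in HKO, as given above, and their part in these sums was not tested.

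In the list of chemokine processing and presentation, 0 of 13 genes were lower and 0 higher, with a median of 0.08. With 3.32% of all genes lower and 3.43% higher, 0 of 13 is near the background. Sdc4, a heparan sulfate proteoglycan, had a log2 ratio of -0.74, Mmp14, a matrix metalloproteinase, 0.56, and Glce, an enzyme of heparan sulfate synthesis, 0.47. Of the chemokine genes outside the symbol rule, 1 of 8 was lower and 0 higher, with a median of -0.42. Against the same shares of all genes, 1 of 8 does not set this list apart. Rarres2, which encodes the chemoattractant chemerin, was at 23.1 and 89.9 CPM and 3.90-fold higher in WT (3.68 to 4.14), and at 22.3 and 81.8 CPM in hepatocyte-like nuclei. Its level was alike in endothelial-like (22.1 and 85.5 CPM), macrophage-like (23.2 and 64.4 CPM) and stellate-like nuclei (27.5 and 89.0 CPM), so its source was not separable. Mif had a log2 ratio of -0.65 and Gpr182, an endothelial atypical chemokine receptor, of -0.59.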

How the data were processed

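The authors deposited raw counts of UMIs per gene and barcode, with no normalization, for 1 HKO and 1 WT library of mouse liver nuclei. Cell Ranger 5.0.0 is named in the file headers and the submitters' processing notes, and the notes also list STAR, Seurat 3.2.0 and GRCm38 without their roles. The sources used here do not say whether counting included intronic reads or used strand. The molecule label is nuclear RNA although the extract text describes total RNA.

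Barcodes needed 500 detected genes and a mitochondrial share below 10%. Both libraries were clustered together with scanpy 1.11.5 (2000 variable genes without the chemokine members, 30 components, 15 neighbours, Leiden resolution 0.5, no batch correction). Classes were named from marker lists, and the naming thresholds were set after seeing the data. The members and all gene lists were chosen with earlier results of these data known. Scrublet marked 0 nuclei in both libraries and so did not work, and no doublets were removed. One alternative left out the 5% deepest barcodes.

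For each class in each library, UMIs were added up and scaled to a total of 1000000 (CPM). The log2 ratio of HKO over WT used a pseudocount of 0.5 CPM and needed 20 raw UMIs, and a size of 1 on that scale was counted as higher or lower. Fold changes in the text are ratios of CPM without the pseudocount. Intervals are exact at 95%: Poisson for a level, conditional binomial for a ratio and Clopper-Pearson for a share. They cover counting error within a library and not the spread between animals, so no p-value is given. In each role, the up to 6 members with the highest mean level were described in full, and up to 3 genes of each list by the largest absolute log2 ratio. Some genes that this rule names are counted but not reported by name here. Gene positions are from GENCODE vM21 (GRCm38). The ratio code was tested on simulated data. Alternatives were other filters, scalings with edgeR 4.0.16 TMM or median ratios, pseudocounts, minimums, clusterings and weights.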

Additional observations from a re-analysis of the deposited data

Results flagged for a closer look

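The 186 WT barcodes left out for a mitochondrial share of 10% or more were in no comparison, and 9 members had more than 3 UMIs in them, above the limit that a count of 0 allows. Their levels there were 127 CPM for Cxcl1, 97.4 CPM for Cxcl12, 24.6 CPM for Cxcl10, 22.7 CPM for Ccl25, 18.0 CPM for Cxcl9, 11.3 CPM for Ccl9, 10.4 CPM for Ackr4, 6.62 CPM for Ccl27a and 4.73 CPM for Cxcl14. The kept WT nuclei had 318 CPM of Cxcl1 and 8.28 CPM of Cxcl9. Cxcl9 in the barcodes left out (interval 10.8 to 28.0 CPM, 19 UMIs) was thus above its level in the kept nuclei, and Cxcl1 (106 to 150 CPM) below its own. In HKO 10 barcodes were left out.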

How the results depend on the processing

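No paired analysis was possible because each group has 1 library and no test was made. The count of members lower in HKO over all nuclei was 5 and lay within 1.5 times of that under each alternative run. Of all genes, 549 were lower in the main run and 400 to 784 under the alternatives. The count of members higher over all nuclei, 1 (Cxcl13), was 0 with at least 2000 UMIs per nucleus, 3 with equal weight per nucleus (Ccl6 and Ccl3 added) and 2 with a pseudocount of 0.1 CPM (Ccl3 added). Of all genes, 566 were higher in the main run. Under these 3 alternatives the all-gene count was 490, 887 and 899, so it moved the same way as the member count. In the class of highest level, the higher count of 2 of 15 members was 1 of 15 with a mitochondrial share under 1%. With a minimum of 5 UMIs it was 4 of 27. The lower count of 4 of 15 was 7 of 27 with a minimum of 5 UMIs. It was 7 of 29 with classes that have at least 20 UMIs of the member, an alternative chosen after seeing the data. That alternative also gave 21 of 29 members highest outside hepatocyte-like nuclei, against 32 of 35. The shares of all genes lower and higher in the class of highest level were not counted under these alternatives. Among the members whose calls switched over all nuclei were Cxcl13, Ccl2, Ccl6, Ccl3, Ccl24 and Cxcl14. Cxcl14 was under the 2-fold size with a pseudocount of 2 CPM (-0.62) and, in an alternative added after seeing the data, without the cluster led by mitochondrial genes (-0.97). Cxcl1, Cxcl10, Cxcl9 and Ccl9 stayed past it in every alternative run over all nuclei. Of the member ratios under alternatives, 331 moved by less than their counting interval allows, 19 by more, and none that passed the 2-fold size reversed. The interval is wide at low counts, so the 331 are no measure of stability. With a pseudocount of 0.1 CPM, Ccl24 went from -0.63 to -1.78 and Ccl3 from 0.91 to 1.73. Both are among the 331 although their calls switched. The cause of these shifts was not tested. Depth limits the members under 1 CPM and the small classes.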
